A study of Ceratina calcarata with 12 samples.

Results

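The 8 gene models described here are those that carry the Gene Ontology term lipase activity in the study's list of differentially expressed genes of the small carpenter bee Ceratina calcarata. They are 8 of the 20693 gene models in the count tables, and all 8 were found there by their identifiers. Lipases cut the ester bonds of fats and release fatty acids. In insects, digestive lipases act on dietary fat, and lipases of the fat body, the tissue that stores fat, draw on triglyceride reserves when energy is needed. The tables name the genes only by identifier, so which of these enzymes each model encodes is not known here, and neither is its position in the genome. All 8 models also carry the term lipid catabolic process. Other lists of the study give Ccalc.v2_001544 the terms protein kinase activity, protein phosphorylation and ATP binding, and give Ccalc.v2_012263 the term ion transmembrane transport, so lipase activity is not the only function annotated to these 2 models.

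Expression was measured by RNA sequencing in whole heads of newly eclosed adult females. In the no care group (orphaned bees, 3 libraries) the mother was taken out of the nest once the pollen provisions and eggs were in place. In the care group (3 libraries) she stayed with the brood. Nests of both groups came from sumac stems in the field and were reared in the laboratory, and each library pooled 3 heads, all from different nests. A head holds brain, eyes, muscle, glands and fat body, so fewer cells of a type and less RNA per cell cannot be told apart. The study chose the 8 genes on the same libraries and the same contrast, by an adjusted p under 0.01 in edgeR's exact test. The differences between the groups given below are therefore descriptions of these libraries and are no independent evidence that lipase genes responded.

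The libraries held 28882748 to 30811286 counts in no care and 26752341 to 31894020 counts in care, of which 12873 to 14756 and 10988 to 19144 fell on the 8 lipase genes. Levels are given as CPM, the counts of a gene per 1000000 counts of its library, scaled between libraries by TMM, which corrects for differences in library composition. The model with the most counts took 3.44% to 3.73% of a no care library (Ccalc.v2_004804) and 1.60% to 1.83% of a care library (Ccalc.v2_013188); the part of this difference in the values below was not tested beyond the other scalings. Gene lengths were not used, so levels are compared between groups and not between genes. For each pair of libraries within a group, the chi-square over genes divided by its degrees of freedom was 38.0 to 80.7, so no library was a repeat of another and each is its own replicate.

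Expression of 6 of the 8 lipase genes was higher in every no care library than in every care library, and expression of the other 2, Ccalc.v2_009915 and Ccalc.v2_015769, was lower in every no care library. Such a lack of overlap was found for 37.6% of all 10763 genes tested. The log2 fold changes of no care over care ran from -1.18 to 3.92, with a median of 0.89, against a median of 0.003 over all genes tested. Of the 8, 5 had group means at least 2-fold apart, as 8.05% of all genes did. An adjusted p under 0.01 was found for 3 of the 8 by the quasi-likelihood test of edgeR (Benjamini-Hochberg adjustment over all genes tested), and for 7.01% of all genes. These were Ccalc.v2_001544 and Ccalc.v2_003020, which rose in no care (3.72% of all genes rose), and Ccalc.v2_015769, which fell (3.30% of all genes fell). The exact test, by which the study chose them, called all 8 when run again here (13.2% of all genes), which is no independent evidence. DESeq2 also called all 8, and 16.1% of the 10133 genes to which it gave an adjusted p.

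**Figure D1:**
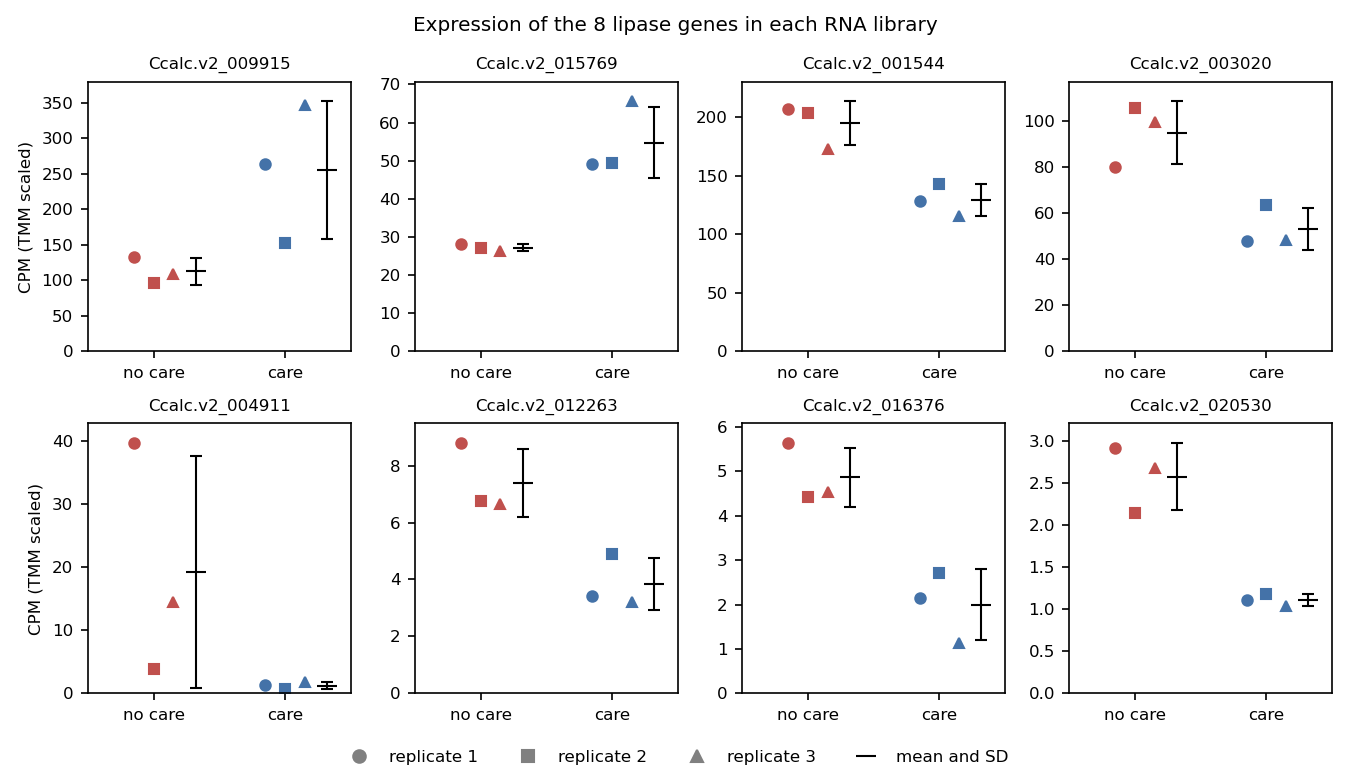
Expression of each lipase gene in CPM (vertical axes, each starting at 0) in the 3 no care libraries (left, red) and the 3 care libraries (right, blue). Symbols are single libraries, and black bars are the mean and SD of a group. Only Ccalc.v2_009915 and Ccalc.v2_015769, the first 2 panels, are lower in no care, and the no care libraries of Ccalc.v2_004911 spread from 3.85 to 39.7 CPM.

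The 2 lipase genes that rose by the quasi-likelihood test were also covered by many reads. Ccalc.v2_001544, the model with kinase terms, had 207, 204 and 173 CPM in no care replicates 1, 2 and 3, against 129, 143 and 116 CPM in care replicates 1, 2 and 3. The means were 195 ± 18.7 CPM in no care and 129 ± 13.8 CPM in care (SD, n = 3 pools each). Its log2 fold change was 0.59 (standard error 0.11), the smallest change in size among the 8, and the gap between the lowest no care and the highest care library was wider than the SD of either group. The counts cover the whole model and cannot be divided between its kinase and lipase annotations.

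Ccalc.v2_003020 had 79.9, 106 and 99.4 CPM in no care, against 47.8, 63.6 and 48.3 CPM in care. It averaged 95.0 ± 13.5 CPM in no care and 53.2 ± 9.00 CPM in care (SD, n = 3 each), a 1.79-fold higher level in no care. Its log2 fold change was 0.84 (standard error 0.15). The libraries of each group differed among themselves by no more than 1.33-fold for this gene.

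Ccalc.v2_004911 had the largest difference and the largest spread of the 8. Its level was 39.7, 3.85 and 14.4 CPM in no care, against 1.30, 0.725 and 1.74 CPM in care. These levels rest on 1157, 113 and 426 counts in no care and on 40, 19 and 57 counts in care. All 3 no care libraries were above all 3 care libraries, but no care replicate 1 was 10.3 times no care replicate 2. The coefficient of variation (SD as a percent of the mean) was 95.3% in no care, higher than that of 99.5% of genes tested, whose median was 13.0%. The group means were 19.3 ± 18.4 CPM in no care and 1.26 ± 0.508 CPM in care (SD, n = 3 each), and the log2 fold change was 3.92 (standard error 0.81). Without no care replicate 1 the log2 fold change was 2.85, and without no care replicate 2 it was 4.41. The gene had an adjusted p of 0.0151 by the quasi-likelihood test with all libraries, and with 1 library left out it ran from 0.00573 to 0.0533.

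For the other 3 lipase genes that were higher in no care, no library held more than 256 reads. Ccalc.v2_012263, the model with an ion transport term, had 8.78, 6.74 and 6.64 CPM in no care, against 3.42, 4.88 and 3.20 CPM in care. Ccalc.v2_016376 had 5.62, 4.42 and 4.54 CPM in no care, against 2.15, 2.71 and 1.13 CPM in care. Ccalc.v2_020530 had 2.91, 2.14 and 2.68 CPM in no care, against 1.11, 1.18 and 1.04 CPM in care. The groups of each gene did not overlap, although Ccalc.v2_020530 rested on only 63 to 85 counts in no care and 31 to 34 in care. The mean level was 1.93 times as high in no care for Ccalc.v2_012263, 2.44 times for Ccalc.v2_016376 and 2.32 times for Ccalc.v2_020530. The log2 fold changes were 0.95 (standard error 0.22), 1.29 (0.31) and 1.22 (0.23) in the same order. None of these 3 genes had an adjusted p under 0.01 by the quasi-likelihood test, with any 1 library left out or with none. With other filters in the same test, Ccalc.v2_020530 had 0.0082 (1 CPM in more than 3 libraries) and 0.0096 (no filter).

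The 2 lipase genes with lower expression in no care included the one that took the most reads of the 8 in every care library. Ccalc.v2_009915 had 134, 96.0 and 109 CPM in no care, against 264, 153 and 347 CPM in care. The groups did not overlap, the gap between them was narrower than the SD in care, and the care libraries differed among themselves by up to 2.26-fold. The means were 113 ± 19.1 CPM in no care and 255 ± 97.2 CPM in care (SD, n = 3 each). Its log2 fold change was -1.18 (standard error 0.27). Its adjusted p was 0.0233 by the quasi-likelihood test. It became 0.00338 when care replicate 2 was left out and 0.0790 when no care replicate 2 was.

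Ccalc.v2_015769 had 28.1, 27.1 and 26.5 CPM in no care, against 49.2, 49.4 and 65.5 CPM in care. The no care libraries agreed to within 1.06-fold, a coefficient of variation of 3.06%, and the care libraries varied by 17.1%. It averaged 27.2 ± 0.832 CPM in no care and 54.7 ± 9.37 CPM in care (SD, n = 3 each), so its level in care was 2.01 times as high. Its log2 fold change was -1.01 (standard error 0.13). This gene kept an adjusted p under 0.01 in 5 of the 6 fits that left out 1 library, more often than any other lipase gene, and had 0.0109 without no care replicate 2.

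**Figure D2:**
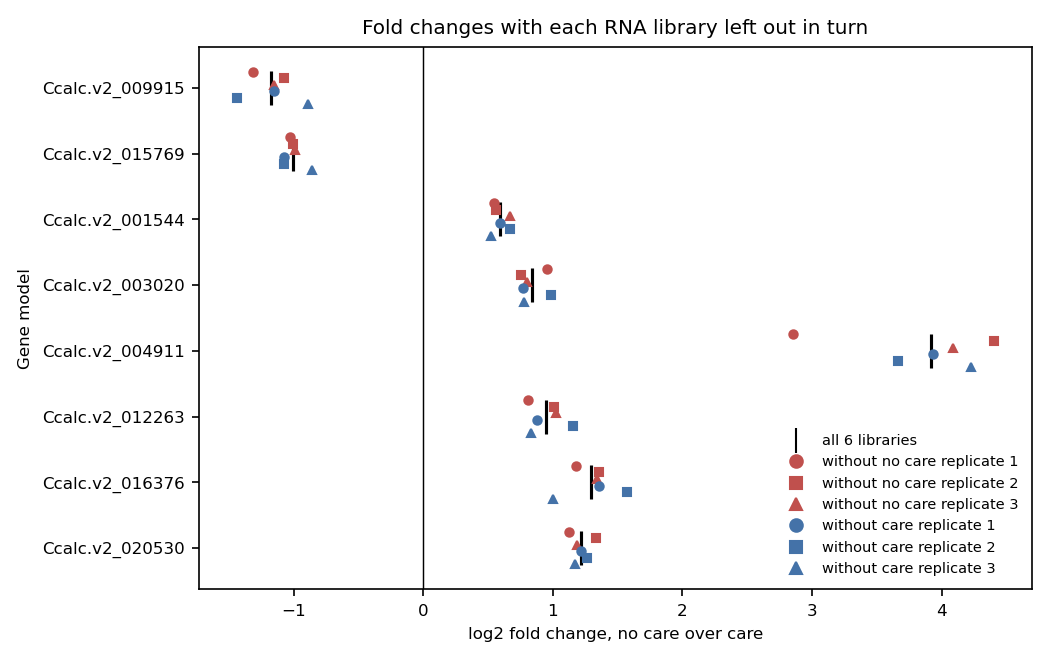
Log2 fold change of no care over care (horizontal axis) for each lipase gene, with all 6 libraries (black line) and after leaving out 1 library at a time (red for a no care library, blue for a care library). Every gene stays on its side of 0, as was bound to happen for groups that do not overlap. Ccalc.v2_004911 moves most, between 2.85 and 4.41.

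The number of genes called changed when 1 library was left out, for the lipase genes as for all genes tested. Each of these fits also had fewer libraries, and the part of that in the changes was not tested. Without care replicate 1 or care replicate 3 the quasi-likelihood test called 1 of the 8, Ccalc.v2_015769, and without no care replicate 2 it called 1, Ccalc.v2_004911. Of all 10763 genes tested it then called 275 without care replicate 1, 172 without care replicate 3 and 327 without no care replicate 2, against 755 with all 6 libraries. When any other library was left out, the count of lipase genes called was 2 or 3, and that of all genes was 350 to 1109. In all 15 alternative fits 6 genes were higher and 2 lower in no care. The groups of each gene did not overlap, so leaving out 1 library was bound to keep the direction. The kept direction is therefore no further evidence. The genes were chosen by an adjusted p under 0.01 in the study's exact test. In the exact test run here, those nearest to that threshold were Ccalc.v2_012263 at 0.00247 and Ccalc.v2_016376 at 0.00196. Lipase genes outside it are not in the list and were not analysed here. By the quasi-likelihood test the nearest to 0.01 were Ccalc.v2_001544, at 0.00939, and Ccalc.v2_020530, at 0.0103.

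Summed over the 8 genes, the reads on lipase genes differed little between the groups. The sums were 506, 450 and 436 CPM in no care, against 498, 419 and 584 CPM in care, and the 2 sets overlapped. The means were 464 ± 36.9 CPM in no care and 500 ± 82.3 CPM in care (SD, n = 3 each). Which genes the reads fell on did differ. Ccalc.v2_009915 took 24.2% ± 2.60 of lipase counts in no care and 49.7% ± 11.8 in care (SD, n = 3 each). Ccalc.v2_001544 took 42.0% ± 2.93 in no care and 26.6% ± 7.21 in care, and Ccalc.v2_003020 took 20.7% ± 4.26 in no care and 11.0% ± 3.66 in care. Without Ccalc.v2_009915, the sums of the other 7 genes were 372, 354 and 328 CPM in no care, against 234, 266 and 237 CPM in care. These shares follow the genes' own differences and add no further evidence.

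**Figure D3:**
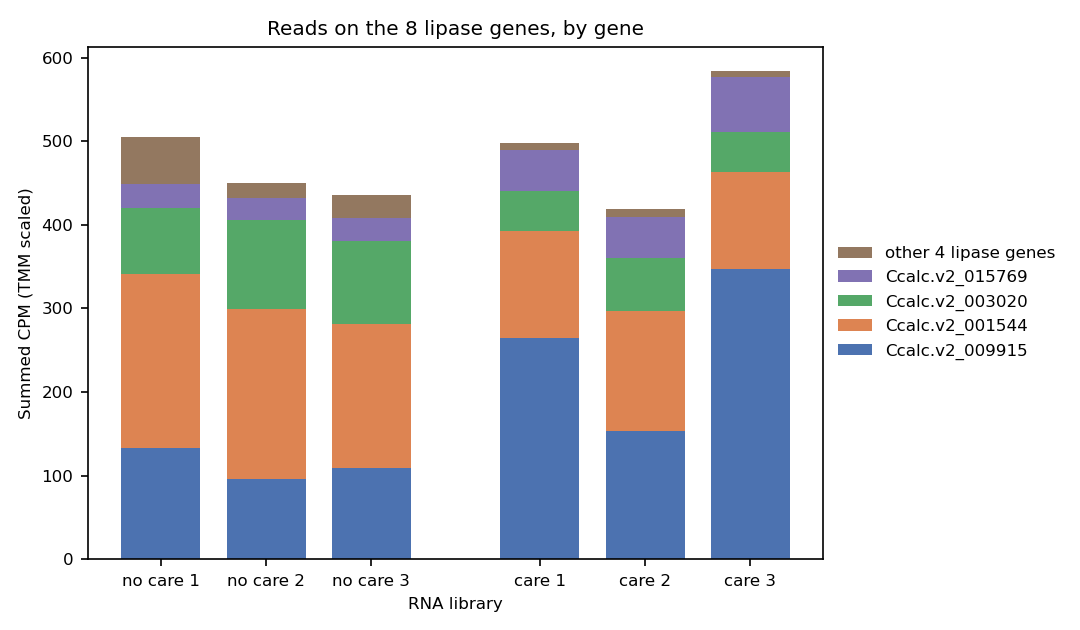
Summed CPM of the 8 lipase genes (vertical axis, from 0) in the 3 no care libraries (left) and the 3 care libraries (right), divided by gene. The totals overlap, at 436 to 506 CPM in no care and 419 to 584 CPM in care, while the Ccalc.v2_009915 part is 96.0 to 134 CPM in no care and 153 to 347 CPM in care.

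Over all 6 libraries, each lipase gene had close companions among the genes tested, measured by Pearson's r of log2(CPM + 1). With 6 libraries in 2 groups such an r mostly follows the difference between the groups, so the values are descriptions. The closest gene to Ccalc.v2_001544 was Ccalc.v2_016819 (r = 0.999), with 111, 108 and 83.3 CPM in no care and 52.0, 59.8 and 41.8 CPM in care. Ccalc.v2_012263 was closest to Ccalc.v2_016814 (r = 0.999), with 175, 122 and 122 CPM in no care and 49.1, 80.4 and 48.9 CPM in care. The number of genes above r = 0.95 was 331 for Ccalc.v2_001544, 332 for Ccalc.v2_012263 and 331 for Ccalc.v2_020530, whose closest gene was Ccalc.v2_014148. It was 57 for Ccalc.v2_004911, with its wide spread in no care, and 65 for Ccalc.v2_009915. The closest genes to these 2 were Ccalc.v2_005316 and Ccalc.v2_019990, both at r = 0.994. The remaining 3, Ccalc.v2_003020, Ccalc.v2_015769 and Ccalc.v2_016376, were closest to Ccalc.v2_010658, Ccalc.v2_007377 and Ccalc.v2_011972, at r of 0.995 to 0.999. Ccalc.v2_019990 and Ccalc.v2_007377 had under 3 CPM in every library, so their r rests on few reads. None of the 8 companions belonged to the lipid lists used here, which hold so few of the genes tested that a match was unlikely anyway.

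**Figure D4:**
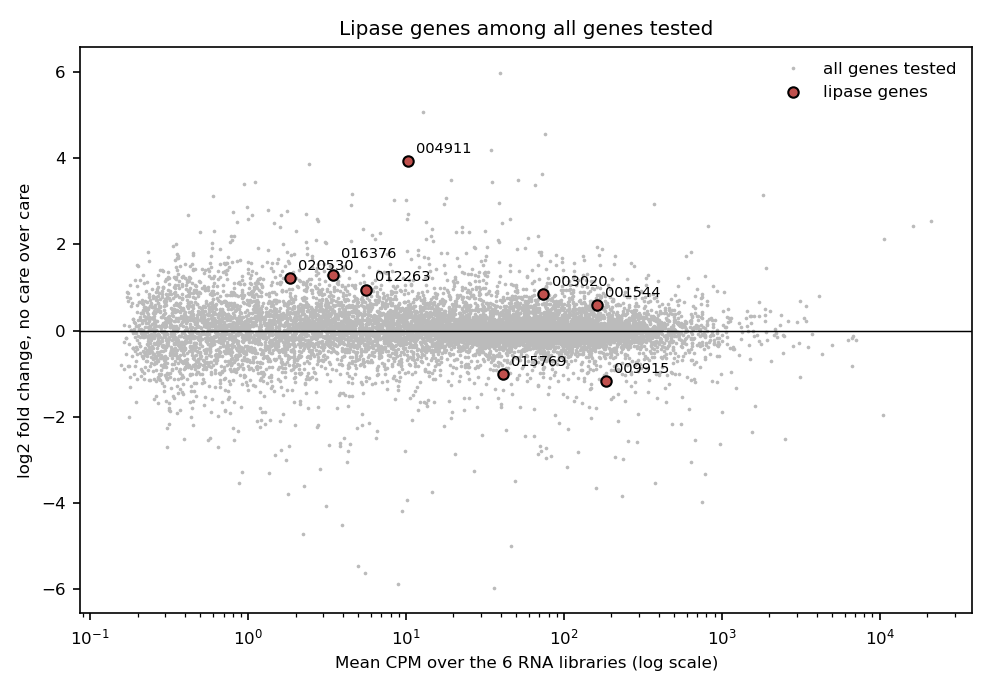
Log2 fold change of no care over care (vertical axis) against mean CPM over the 6 RNA libraries (horizontal axis, log scale) for all 10763 genes tested (grey) and the 8 lipase genes (red, labelled by the number of the gene model). The lipase genes lie between -1.18 and 3.92, with 6 above 0 and 2 below.

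The genes of the other 3 lipid lists used here were mostly lower in no care. These lists were also chosen on the same libraries, so their counts are descriptions too. Besides the 8 lipase genes, the study's list for lipid catabolic process holds 3 genes, and all 3 were lower in every no care library. Genes of the term that the study did not call are not in this list. Of all genes tested, 37.6% had groups that did not overlap, in either direction. Of the 3 genes, Ccalc.v2_019754 fell by the quasi-likelihood test, as 3.30% of all genes did. Ccalc.v2_019754 had 2, 6 and 11 counts in no care against 437, 339 and 175 counts in care. It averaged 0.215 ± 0.152 CPM in no care and 10.8 ± 4.81 CPM in care (SD, n = 3 each), and its log2 fold change was -5.62 (standard error 0.57). Ccalc.v2_003211 and Ccalc.v2_005434 had log2 fold changes of -0.48 and -0.42 and were not called.

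Fatty acid biosynthesis, the making of the chains that lipases release, is listed with 14 genes, of which Ccalc.v2_003211 is shared with lipid catabolic process. By the quasi-likelihood test 6 fell and 1 rose, where 3.30% of all genes fell and 3.72% rose, and 3 of the 14 were called without care replicate 3. The median log2 fold change was -0.79, against 0.89 for the lipase genes. The largest fall was that of Ccalc.v2_012035 (log2 fold change -3.17, standard error 0.18), and the rise was that of Ccalc.v2_000197 (0.77, standard error 0.10). Fatty-acyl-CoA reductases turn activated fatty acids into fatty alcohols, which insects use for waxes and some pheromones. Of the 8 listed, 5 fell and 2 rose, beside the same shares of all genes, and the median log2 fold change was -1.32. The 7 calls became 3 without care replicate 3, and 4 without care replicate 1, without no care replicate 1 or without no care replicate 2. In these fits, in the same order, the calls over all genes fell from 755 to 172, 275, 350 and 327. Among the reductase genes the largest fall was that of Ccalc.v2_008427 (log2 fold change -2.87, standard error 0.38). The largest rise among them was that of Ccalc.v2_010949 (5.06, standard error 0.87). It had 37.1, 18.6 and 18.6 CPM in no care, against 0.0652, 2.14 and 0.152 CPM in care. The size of this rise thus rests on low care levels that differed widely, with a coefficient of variation of 149%. Of the 4 lists, the lipase list alone had a median above 0, and no test of that difference was made because all 4 were chosen on this contrast.

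**Figure D5:**
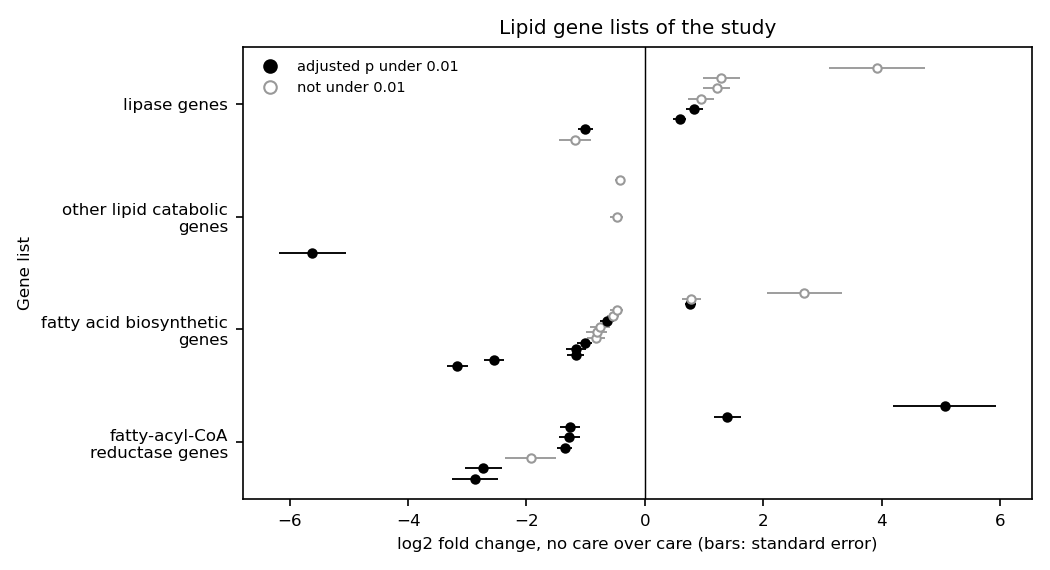
Log2 fold change of no care over care (horizontal axis) with its standard error for each gene of the 4 lists (rows). Filled points had an adjusted p under 0.01 by the quasi-likelihood test. Of the lipase genes 6 of 8 lie above 0, against 0 of 3 other lipid catabolic genes, 3 of 14 fatty acid biosynthetic genes and 2 of 8 fatty-acyl-CoA reductase genes.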

How the data were processed

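The deposited values are raw read counts per gene model, made by the authors with featureCounts from pairs trimmed in Trimmomatic 0.32 and mapped by TopHat to the species' own assembly. How strand and reads matching several gene models were treated is not given in the sources used here, so near-identical or overlapping models are uncertain. A gene was tested if it exceeded 0.18 CPM in more than 3 libraries, as 10763 of 20693 did, among them all 8 lipase genes. At the library totals 0.18 CPM is 4.82 to 5.74 counts. No care and care were compared in edgeR 4.0.16 (R 4.3.3) by its quasi-likelihood test, after TMM scaling, with Benjamini-Hochberg adjustment over all genes tested and the study's threshold of 0.01. The study itself used edgeR's exact test on 11068 genes, the number that here exceeded 0.18 CPM in at least 3 libraries. Standard errors are the log2 fold change divided by the square root of the F statistic. Alternatives were the exact test, DESeq2 1.42.0, other scalings and filters, a laxer threshold of 0.05, a replicate block, and fits without 1 library at a time. The scripts were tested on simulated data. There the exact test and DESeq2 exceeded their nominal rate of false calls with 3 libraries per group, so their higher counts are taken with caution. That was 1 simulated draw with fewer changed genes than were called here, and the rate in the real libraries was not tested. Figures were drawn with matplotlib 3.10.9.

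The members and lists were chosen with earlier results of these data known. All 8 listed lipase genes and the other 3 genes listed under lipid catabolic process are named. In each other list the largest called rise and fall are named, and for each lipase gene the gene with the highest r. Lists that were shortened in the copy used, such as lipid metabolic process, were left out. The 6 bisulfite libraries, pools of 9 heads, were not used, since the gene models were not placed on the scaffolds here. No marker of a tissue was checked: the count tables give no gene names, and the study's table of Drosophila orthologs and scaffold positions was held only in part, with none of the 8 lipase genes. The labels give no batch.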

Additional observations from a re-analysis of the deposited data

How the results depend on the processing

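Every lipase gene kept its direction in all 15 alternative fits. The groups of each gene did not overlap, so the fits without 1 library could not test direction. Of the 120 values from all these fits, 90 kept their side of the threshold, 17 gained a call and 13 lost one. The exact test called 8 lipase genes, 3 other lipid catabolic genes, 14 fatty acid biosynthetic genes and 1420 of all genes, and DESeq2 called 8, 3, 14 and 1630. A threshold of 0.05 gave 8, 3, 14 and 1818, against 3, 1, 7 and 755 at 0.01. With no filter on low counts the quasi-likelihood test called 6 lipase and 12 fatty acid biosynthetic genes, and 955 of the 16278 genes then tested. Scaling by library size only or by upper quartile called 2 other lipid catabolic genes, and 782 and 774 of all genes. Library size only moved the median of all genes to -0.03 and left 2 lipase genes called. With 1 library left out, the count was 1 to 3 for lipase genes, 1 to 2 for other lipid catabolic genes (2 without no care replicate 3), 3 to 7 for fatty acid biosynthetic genes (3 without care replicate 3), 3 to 7 for fatty-acyl-CoA reductase genes (3 without care replicate 3, and 4 without care replicate 1 or without either no care replicate 1 or 2) and 172 to 1109 for all genes. For all genes it was 172 without care replicate 3, 275 without care replicate 1, 327 without no care replicate 2 and 350 without no care replicate 1. The median log2 fold change of the lipase genes was 0.80 to 1.07, the highest without care replicate 2. The log2 ratio of their summed CPM, -0.11 with all libraries, was 0.02 without care replicate 3. The cause of these changes was not tested. No clear pairing of the libraries by replicate number was seen. Deviations from the group means correlated at -0.04, -0.07 and 0.11 between libraries of the same number (1, 2 and 3). The highest r of each no care library with a care library of another number was 0.09, 0.16 and -0.02. For number 3 the same number thus gave the higher r, so these values do not settle the question. With the replicate block, 3 lipase genes (Ccalc.v2_003020, Ccalc.v2_004911 and Ccalc.v2_015769), 4 fatty acid biosynthetic genes and 371 of all genes were called. Few reads limit Ccalc.v2_020530, with 31 to 85 counts per library, and Ccalc.v2_004911, with 19 to 57 counts in the care libraries. The methylation of the lipase genes, planned with 2 coverage limits, was not run, because the gene models were not placed on the scaffolds here.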

Other observations

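The lipase genes were also compared with each other within the groups, after the group means were removed from log2(CPM + 1). Of all 28 pairs, 16 correlated above 0 over the 6 libraries, with a median r of 0.12. Divided by direction, 12 of the 15 pairs of lipase genes that were both higher in no care correlated above 0, with a median r of 0.28. The 2 genes that were lower in no care, Ccalc.v2_009915 and Ccalc.v2_015769, correlated at 0.73. Of the 12 pairs made of 1 gene from each set, 3 correlated above 0, and their median r was -0.47. Some pairs went against this division, such as Ccalc.v2_003020 with Ccalc.v2_004911, at -0.76, and Ccalc.v2_004911 with Ccalc.v2_009915, at 0.55. Among the care libraries, replicate 3 had the highest level of both Ccalc.v2_009915 (347 CPM) and Ccalc.v2_015769 (65.5 CPM), and the lowest level of Ccalc.v2_001544 (116 CPM), Ccalc.v2_012263 (3.20 CPM), Ccalc.v2_016376 (1.13 CPM) and Ccalc.v2_020530 (1.04 CPM). Care replicate 3 thus lay further from the no care libraries than the other care libraries did for these 6 genes. Ccalc.v2_004911 did not follow this order, with its highest care level, 1.74 CPM, in care replicate 3, and neither did Ccalc.v2_003020, whose lowest was in care replicate 1 (47.8 CPM). With 4 degrees of freedom left, shared between all genes of a library, these correlations are a description, and the same was not computed over all genes.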
